A study of Mus musculus with 28 samples.

Results

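Feeding with trans-10, cis-12 conjugated linoleic acid (CLA) was compared with a control diet on day 1 of feeding, the first of 7 days sampled, in mouse retroperitoneal white fat. The comparison rests on 4 of the 28 arrays of the study: both arrays titled as day 1 CLA and both titled as day 1 control. The CLA mice received a diet with 0.5% of this isomer, and the control mice the control diet. All mice were 9 weeks old, of a strain the labels write as C57BK/6J, and no genetic change, drug or other agent is named for either diet. Each RNA came from the retroperitoneal fat pads of 10 mice pooled before extraction. The 140 mice of the study make 10 for each of its 14 groups of diet and day, so whether the 2 arrays of a group are separate pools of mice is not settled by the labels, and p-values may measure technical spread only. The same difference was measured on 6 later days, 2, 3, 4, 7, 10 and 17, each with its own 2 control arrays.

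White adipocytes store triglyceride under the control of insulin and release fatty acids when hormones raise cyclic AMP. The transcription factors PPAR gamma and C/EBP alpha maintain the adipocyte programme, and SREBP-1c and ChREBP drive the genes of fatty acid synthesis. The trans-10, cis-12 isomer of CLA is known for reducing body fat in mice, and in adipocytes it has been linked to inflammatory and stress signalling. Heat shock factor, NF-kB and the immediate early factors of the AP-1 and EGR families are known for acting within minutes to hours of a stimulus.

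The RNA of the day 1 arrays stood apart in the probe sets that read the 3' and the 5' end of Gapdh and of beta-actin. A wide 3' to 5' gap is a known sign of degraded or incompletely copied RNA. The Gapdh gap was 1.31 and 1.27 log2 units in the CLA arrays, against 1.33 and 0.15 in the control arrays of replicates 1 and 2. The beta-actin gap was 2.72 and 2.28 in CLA, against 2.77 and 1.5 in control. For both transcripts, 3 of the 4 day 1 arrays lay above the highest of the other 24 arrays, 1.2 for Gapdh and 1.87 for beta-actin, and the array that did not was control replicate 2. The CLA gap averaged 1.29 ± 0.0283 for Gapdh and 2.50 ± 0.311 for beta-actin, and the control gap 0.740 ± 0.834 and 2.14 ± 0.898 (SD, n = 2 each). The diets differed by 0.55 for Gapdh and by 0.365 for beta-actin, with an exact two-sided permutation p of 1 for each (2 arrays against 2 cannot go below 0.333). Without control replicate 2 the Gapdh difference was -0.04. Among the other transcripts read at both ends, the gap was 4.38 in CLA and 4.14 in control for pyruvate carboxylase. It was 1.39 and 1.15 for the transferrin receptor, and 2.37 and 2.81 for 18S rRNA. In these transcripts 1, 0 and 1 of the 4 day 1 arrays lay above the other 24. For 18S rRNA that array was control replicate 2, at 3.07 against at most 2.7. Because the array with the low Gapdh and beta-actin gap is a control array, many of the results below are given again without it. Some counts of called list members also shrank without it and are not given again. These include chemokines, fatty acid synthesis, triglyceride synthesis, insulin signalling and glucocorticoid response.

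**Figure D1:**
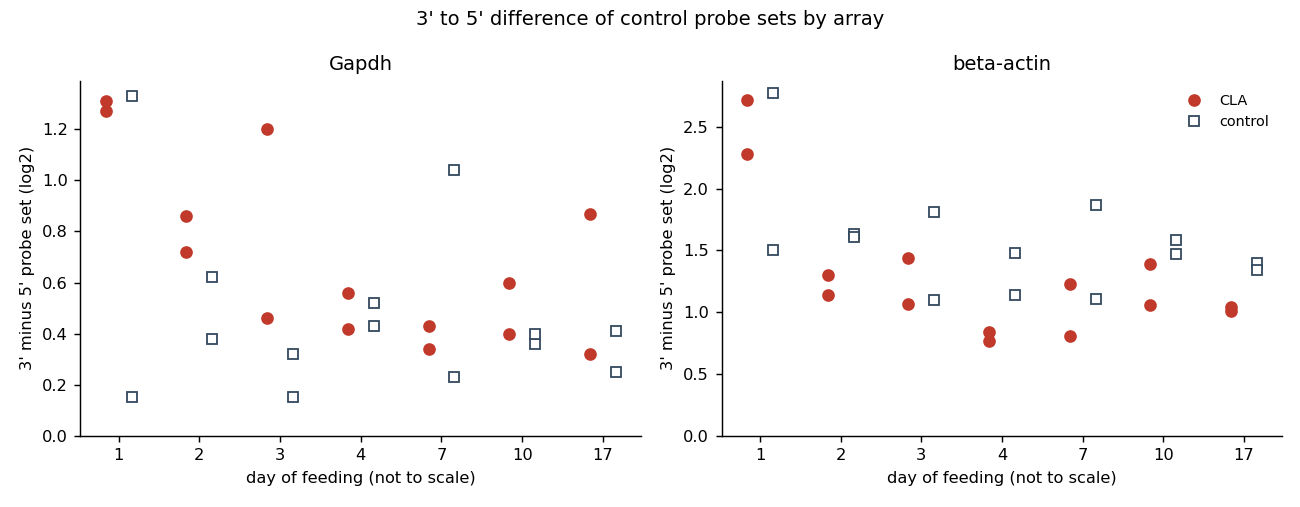
Log2 signal of the 3' minus the 5' probe set of Gapdh and beta-actin on every array, with CLA arrays as filled circles and control arrays as open squares, by day of feeding. On day 1, 3 of the 4 arrays lie above the highest of the other 24 arrays for both transcripts, and control replicate 2 lies among them.

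Of 18193 genes tested with limma, 3420 (18.8%) differed between CLA and control on day 1 at an adjusted p under 0.05, the threshold for a call throughout. CLA was higher for 1449 genes (7.96% of those tested) and lower for 1971 (10.8%). Over all genes tested, called or not, 690 were higher and 943 lower by 2-fold or more (8.98%). The median difference over all genes was 0.005 log2 units, and the count of each gene list below is to be set against that median and these shares. Both CLA arrays lay above both control arrays in 22.5% of all genes, and below both in 22.4%. Of the 3420 called genes, 3399 were separated in this way. Remarks below that the arrays of the diets did not overlap therefore add little to a call. With each array centred on its median, 3573 genes were called, 1861 higher and 1712 lower, a split of 52.1% higher against 42.4% as deposited. With control replicate 2 left out, 2697 genes were called, 2265 of them also called with it, and all 3420 kept their direction. That direction was fixed in advance for the 3399 separated genes, so it is no check on the array left out. With the Gapdh gap of each array as a covariate 3055 genes were called, and with the beta-actin gap 3442. Of the 3420, 2727 were called in the same direction with the Gapdh covariate and 3084 with that of beta-actin. The part of RNA quality in single genes was not tested beyond these fits. In pooled bulk tissue, fewer cells of a type and less RNA per cell cannot be told apart.

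Cytokine, heat shock and early response genes made up most of the 14 largest rises. Ptx3, the secreted pattern recognition protein pentraxin 3, had a log2 signal of 10.11 and 10.90 in CLA, against 4.31 and 4.13 in control. Its difference of 6.29 ± 0.451 (SE) is a 78.0-fold rise (adjusted p = 2.22e-08), while its other probe set differed by 0.295. The remaining 13 were Hspa1a, Ccl2, Cxcl10, Cxcl2, Hspa1b, Sprr1a, Chil3, Fosl1, Ccl7, Mllt11, Cxcl3, Stx11 and Il6. Sprr1a, a cornified envelope protein, read 7.74 and 9.28 in CLA, against 3.92 and 3.95 in control, and Stx11, a syntaxin of immune cells, 7.87 and 7.60, against 3.76 and 3.24. Chil3, a chitinase-like protein of myeloid cells, read 8.92 and 8.36 in CLA, against 4.49 and 3.72 in control, a call lost with a single replicate of each diet. Mllt11 read 10.0 and 9.69 in CLA, against 5.73 and 5.29 in control, but a second probe set of that gene differed by -0.085.

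The 14 largest falls were B3galt2, Mc2r, Oxtr, Klb, Tshr, Sucnr1, Selenbp1, Pfkfb3, Zfp467, Irs3, Hcar1, Ffar4, Sbk1 and Tmem120a, of which Mc2r, Oxtr, Klb, Tshr, Sucnr1, Hcar1 and Ffar4 encode receptors or a co-receptor of the cell surface. B3galt2, a galactosyltransferase, read 5.59 and 4.07 in CLA, against 8.86 and 8.60 in control, a difference of -3.9 ± 0.35 (adjusted p = 3.29e-07). Klb, the co-receptor of FGF21, read 7.30 and 6.05 in CLA, against 10.07 and 9.63 in control, while its other probe set differed by 0.175. Pfkfb3, the enzyme that makes the glycolytic activator fructose 2,6-bisphosphate, read 7.64 and 7.14 in CLA, against 10.62 and 10.22 in control. In all 28 of these genes both CLA arrays lay on one side of both control arrays, as their selection required. Other probe sets gave a smaller difference of the same sign for several genes named here, more than 1 log2 unit away from the one used: 1.91 for Fosl1, 2.71 for Stx11, 2.10 for Thbs1, 1.33 for Clec4e, 0.91 for Fcgr1, 1.09 for Nfkbie, 0.825 for Hspa5 and 2.57 for Socs3. The same held among falls for Pfkfb3 (-1.08), Sbk1 (-1.73), Zfp467 (-1.44), Tshr (-0.905), Mgll (-0.625), Thrsp (-0.385) and H2bc21 (-1.23).

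**Figure D2:**
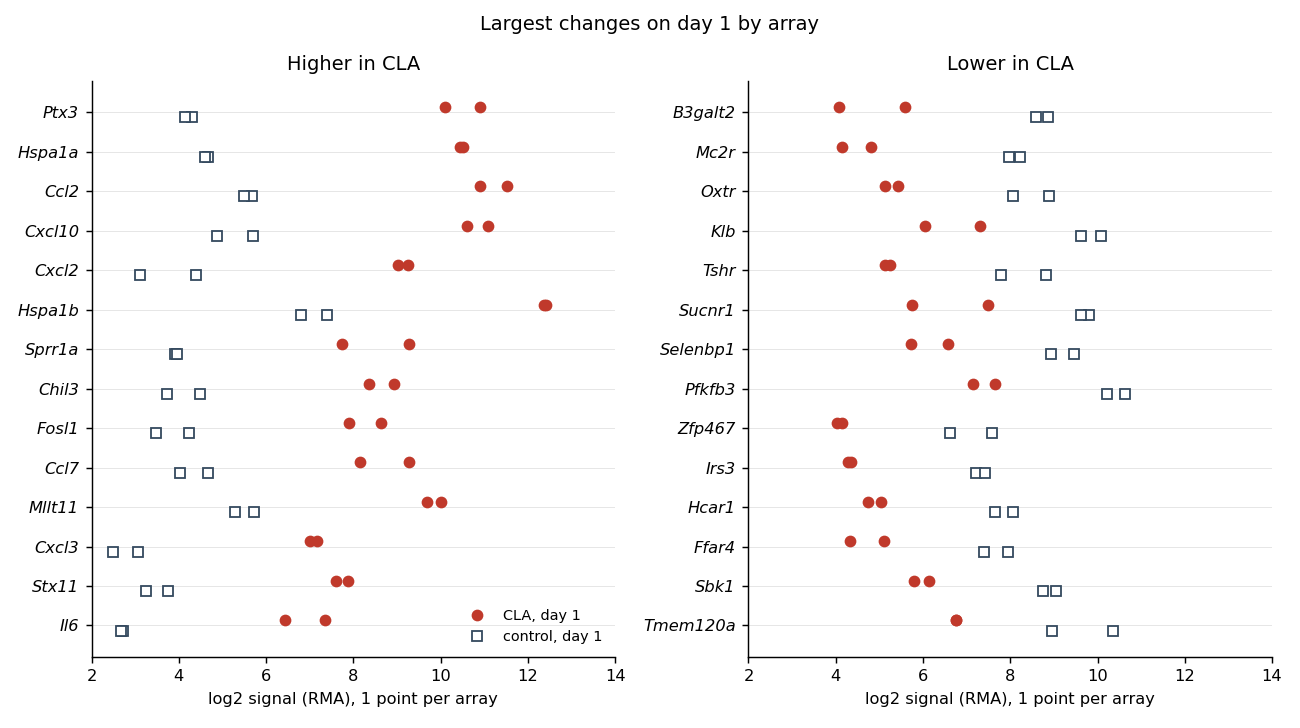
Log2 signal of the 14 genes with the largest rises (left panel) and the 14 with the largest falls (right panel) on day 1, 1 point per array, with CLA as filled circles and control as open squares. Ptx3 lies at 10.11 and 10.90 in CLA and at 4.31 and 4.13 in control, and B3galt2 at 5.59 and 4.07 in CLA and at 8.86 and 8.60 in control.

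All 20 measured genes of the cytosolic and mitochondrial heat shock proteins rose, against 7.96% of all genes. Their median difference was 1.74, and they ranged from 0.965 for Hspa8 to 5.84 for Hspa1a. Hspa1a, an inducible HSP70, read 10.44 and 10.52 in CLA, against 4.67 and 4.60 in control, a 57.5-fold difference (5.84 ± 0.268, adjusted p = 8.19e-11). Hspa1b is a near-identical copy of it, and the probe sets may share its signal: it read 12.42 and 12.36 in CLA, against 7.40 and 6.79 in control. Both genes had each CLA array several units above each control array.

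Co-chaperones and small heat shock proteins moved with them. Hspb1, the small heat shock protein HSP25, read 13.75 and 13.89 in CLA, against 9.83 and 10.23 in control (3.79 ± 0.325, adjusted p = 2.06e-07). Hsph1, a nucleotide exchange factor of HSP70, read 12.50 and 12.65 in CLA, against 8.94 and 8.75 in control (3.73 ± 0.167, adjusted p = 8.19e-11). Dnajb1, a J-domain partner of HSP70, read 12.10 and 12.28 in CLA, against 8.86 and 8.70 in control (3.41 ± 0.209, adjusted p = 3.13e-09). In each case both CLA arrays lay far above both control arrays. The list gave 20 calls without control replicate 2 as well.

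In every one of these 20 genes the day 1 rise exceeded the mean of the other 6 days by the test of that difference. Of all genes, 6.18% were higher by it. By the rule given with the day comparison, 9 of the 20 were changed on day 1 only. That count was 9 with the Gapdh gap as a covariate and 6 with the beta-actin gap. It was also lower when either day 1 control array was left out. Later, 5, 9, 8, 2, 3 and 3 members were higher on days 2, 3, 4, 7, 10 and 17, when 4.84%, 11.3%, 12.8%, 8.75%, 10% and 11.5% of all genes were. Their median differences on those days were 0.33, 0.50, 0.52, 0.11, 0.17 and 0.085. Hsph1 differed by 0.69, 0.88, 0.97, 0.10, 0.18 and -0.22 on those days, and Hspa1a by 1.06, 2.42, 1.63, 0.86, 1.43 and 1.61.

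Heat shock factor binds inverted repeats of GAA units, and the promoters of 3 members are shown because they hold such a repeat, searched as GAA, TTC and GAA in turn with any 2 bases between neighbours, or its reverse complement, in the RefSeq window of 250 bases before to 50 after the transcript start (build GRCm38.p6). Each stretch runs from 120 bases before to 30 after the start, with the matches in capitals: Hspe1 at chr1:55088028-55088177 (plus strand, 2 overlapping matches), Chordc1 at chr9:18292147-18292296 (plus strand, 3 overlapping matches) and Hsph1 at chr5:149636286-149636435 (minus strand, 1 match).
Hspe1: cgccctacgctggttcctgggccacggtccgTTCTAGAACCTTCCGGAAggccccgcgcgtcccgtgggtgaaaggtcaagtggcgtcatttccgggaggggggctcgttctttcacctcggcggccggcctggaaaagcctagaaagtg
Chordc1: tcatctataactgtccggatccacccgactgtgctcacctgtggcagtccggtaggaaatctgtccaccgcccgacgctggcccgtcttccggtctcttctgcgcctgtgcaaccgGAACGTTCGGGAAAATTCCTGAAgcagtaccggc
Hsph1: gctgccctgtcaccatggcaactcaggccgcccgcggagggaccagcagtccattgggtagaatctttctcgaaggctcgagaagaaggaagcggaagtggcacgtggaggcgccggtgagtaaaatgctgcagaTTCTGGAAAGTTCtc

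Among the 16 heat shock genes with a promoter in that table, 4 held the repeat (25%: Chordc1, Hspd1, Hspe1 and Hsph1), where the windows of Hspe1 and Hspd1 overlap on opposite strands and share it. Of all 14452 tested genes with a promoter, 88 held it (0.609%). It was present in 0.94% of the genes higher in CLA and in 0.503% of those lower, and in 1.91% of the genes higher on day 1 only. Hspe1, the mitochondrial co-chaperonin HSP10, Hspd1, its partner HSP60, and Chordc1, an HSP90 co-chaperone, were changed on day 1 only. These are letter matches, and binding was not measured.

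The list of immediate early transcription factors gave 16 rises among 25 measured members (7.96% of all genes). None fell, and their median difference was 1.12. Fosl1, the AP-1 subunit FRA1, read 7.91 and 8.63 in CLA, against 3.47 and 4.24 in control (4.42 ± 0.376, adjusted p = 2.02e-07). Atf3, a stress-induced repressor, read 8.71 and 9.47 in CLA, against 5.07 and 5.10 in control (4.00 ± 0.356, adjusted p = 2.96e-07). Maff, a small MAF protein, read 7.60 and 9.39 in CLA, against 4.81 and 5.03 in control, so its CLA arrays lay further apart than its control arrays, with both above control.

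Egr1 read 10.31 and 10.74 in CLA, against 7.64 and 7.32 in control (3.04 ± 0.252, adjusted p = 1.48e-07). Ier3, an early response gene of NF-kB and p53, read 8.52 and 9.04 in CLA, against 5.67 and 5.02 in control. Fos itself read 8.36 and 9.25 in CLA, against 6.39 and 5.51 in control. For these genes no CLA array reached down to a control array. The day 1 rise exceeded the other days' mean in 7 of the 25, Fosl1, Egr1, Ier3 and Maff among them, and of the 25 only Nr4a1 was changed on day 1 only. Atf3 differed by 1.80, 3.50, 4.15, 4.79, 4.67 and 4.66 on days 2, 3, 4, 7, 10 and 17 and its day 1 value did not differ from their mean by the test (adjusted p = 0.925). Among the MAP kinase phosphatases, which switch off the kinases upstream of AP-1, 4 of 10 rose (Dusp1, Dusp6, Dusp8 and Dusp16) and Dusp4 fell, with a median of 0.815. The Dusp1 call, 1.04 with an adjusted p of 0.00354, was lost without control replicate 2 (0.725, adjusted p = 0.0769), and that of Dusp4 when single day 1 arrays were left out.

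Stress pathways beyond the heat shock proteins were higher in CLA as well. Of the genes of ATF4 and the integrated stress response, 15 of 24 rose and 2 fell (Phgdh and Vegfa), against 7.96% higher and 10.8% lower of all genes, with a median of 1.21. Ppp1r15a, which encodes the phosphatase subunit GADD34 that restores translation, read 9.10 and 10.13 in CLA, against 6.06 and 6.35 in control (3.41 ± 0.302, adjusted p = 2.96e-07). Mthfd2, a mitochondrial folate enzyme, read 9.38 and 9.34 in CLA, against 6.33 and 6.28 in control. Trib3, a pseudokinase induced by ATF4, read 8.13 and 8.03 in CLA, against 5.29 and 4.98 in control. All 3 genes had non-overlapping arrays. Ddit3, the factor CHOP, differed by 2.70 and Slc7a1, an arginine transporter, by 2.77, but other probe sets of each differed by as little as 0.32 and 0.055. The day 1 effect exceeded the other days' mean in 11 of the 24 (6.18% of all genes).

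Endoplasmic reticulum chaperones rose in 10 of 18 members, with a median of 0.60. Hspa5, the chaperone BiP, read 13.68 and 13.40 in CLA, against 11.94 and 11.41 in control (1.86 ± 0.184, adjusted p = 8.34e-07). Manf, a secreted factor of the unfolded protein response, read 10.27 and 11.18 in CLA, against 8.69 and 9.13 in control. None of the 18 was changed on day 1 only, and on day 4 15 of them were higher (12.8% of all genes).

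Targets of NRF2, the factor of the antioxidant response, rose in 9 of 16 and fell in 1 (Gsta4), with a median of 0.64. Hmox1, heme oxygenase 1, read 8.61 and 10.09 in CLA, against 5.56 and 4.94 in control (4.1 ± 0.652, adjusted p = 0.000153). Srxn1, sulfiredoxin, read 10.91 and 11.31 in CLA, against 7.05 and 7.57 in control (3.80 ± 0.384, adjusted p = 9.93e-07). Gclm, a subunit of the enzyme that starts glutathione synthesis, read 10.90 and 11.19 in CLA, against 8.46 and 8.11 in control. Their CLA arrays all lay above control, and the day 1 difference of Srxn1 and Gclm, but not of Hmox1, exceeded the other days' mean by the test (adjusted p = 0.00444, 0.000163 and 0.231).

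Chemokines, the attractants of leukocytes, rose in 13 of 20 members (7.96% of all genes) with a median of 1.2, and none fell. With the Gapdh gap as a covariate, 9 of the 20 were called higher. Ccl2, which attracts monocytes, read 10.90 and 11.51 in CLA, against 5.68 and 5.49 in control, a 49.2-fold difference (5.62 ± 0.73, adjusted p = 1.73e-05). Cxcl10, a ligand of CXCR3, read 10.60 and 11.08 in CLA, against 5.69 and 4.88 in control (5.55 ± 0.39, adjusted p = 1.76e-08). Cxcl2, a neutrophil attractant, read 9.26 and 9.02 in CLA, against 4.39 and 3.11 in control (5.39 ± 0.536, adjusted p = 9.08e-07). No array of one diet overlapped the other for these chemokines. Ccl7 read 8.15 and 9.27 in CLA, against 4.02 and 4.66 in control. Cxcl1 differed by 2.41 in the probe set used and by 5.74 to 7.00 in its others. Cxcl3, which is not on that list, read 7.16 and 7.01 in CLA, against 3.07 and 2.48 in control (4.31 ± 0.538, adjusted p = 1.12e-05).

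Among interleukins and growth factors of inflammation, 8 of 19 rose, with a median of 0.32. Il6, interleukin 6, read 6.43 and 7.36 in CLA, against 2.71 and 2.67 in control, an 18.4-fold difference (4.21 ± 0.25, adjusted p = 2.39e-09). Its control values lie near the bottom of the scale, which ran from 1.9 to 14.18, and no detection calls were used here, so the fold depends on how that floor is set. On the later days Il6 differed by 0.565, 0.355, 0.285, 0.04, 0.40 and 0.21, none of which passed the test. Il1b, interleukin 1 beta, read 7.41 and 7.07 in CLA, against 4.66 and 4.34 in control (2.74 ± 0.31, adjusted p = 3.86e-06). Csf1, the macrophage growth factor, read 10.37 and 9.89 in CLA, against 7.47 and 7.49 in control, with other probe sets between -0.06 and 1.81. The arrays of both cytokines were separated by diet. Tnf differed by 0.70, and Lif, Osm, Il10 and Il11 by 0.31, 0.13, -0.07 and 0.04 without passing the test.

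Subunits and feedback inhibitors of NF-kB rose in 12 of 14, with a median of 1.45. Nfkbie, an inhibitor of the IkB family, read 7.44 and 7.09 in CLA, against 5.47 and 4.11 in control. Icam1, an adhesion molecule and NF-kB target, read 7.10 and 7.34 in CLA, against 5.04 and 4.85 in control (2.27 ± 0.282, adjusted p = 1.05e-05). Relb read 6.42 and 7.56 in CLA, against 4.93 and 4.98 in control. Each of the 3 was higher in both CLA arrays than in any control array. As deposited, 3 of the 14 exceeded the other days' mean, and none was changed on day 1 only. These counts depended on the processing. They were 6 and 3 with each array centred on its median, and 6 and 2 with quantile normalisation. With the Gapdh gap as a covariate they were 3 and 2, and with the beta-actin gap 4 and 2.

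The receptors and feedback genes of interleukin 6 and STAT3 rose in 7 of 13 and fell in 2 (Lifr and Pias3), with a median of 1.69. Socs3, the feedback inhibitor of that pathway, read 9.94 and 10.16 in CLA, against 6.85 and 6.03 in control (3.61 ± 0.36, adjusted p = 9.15e-07). Osmr, the oncostatin M receptor, read 10.09 and 10.24 in CLA, against 8.22 and 7.55 in control, with another probe set at 0.15. Cebpd read 8.70 and 10.26 in CLA, against 7.31 and 7.5 in control, and was changed on day 1 only. The diets did not overlap in any of them. Socs3 differed by 0.74, 1.12, 0.95, 0.47, 0.89 and 1.51 on the later days, and its day 1 value exceeded their mean by 2.66 (adjusted p = 9.21e-05). Among acute phase proteins 2 of 14 rose, Ptx3 and Saa3, and 2 fell, Orm1 and Orm3. The Orm3 call was lost when single day 1 arrays were left out, and the Saa3 call (2.14, adjusted p = 0.00418) without control replicate 2 (adjusted p = 0.0506). The median of the list was -0.0875.

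NF-kB binds a motif searched here as GGGA and TTCC with any 2 bases between them, on both strands, and the promoters of 3 of the largest rises are shown because they hold it, again from 120 bases before to 30 after the start and with the matches in capitals. They are Cxcl2 at chr5:90903779-90903928 (plus strand, 2 overlapping matches), Cxcl3 at chr5:90785981-90786130 (plus strand, 2 overlapping matches) and Il6 at chr5:30012994-30013143 (plus strand, 1 match).
Cxcl2: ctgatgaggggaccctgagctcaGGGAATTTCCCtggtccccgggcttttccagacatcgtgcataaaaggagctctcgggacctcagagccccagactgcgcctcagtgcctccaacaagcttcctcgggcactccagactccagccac
Cxcl3: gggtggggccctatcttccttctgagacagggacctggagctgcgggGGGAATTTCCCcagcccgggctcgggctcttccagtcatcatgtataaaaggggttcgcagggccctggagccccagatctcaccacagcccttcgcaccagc
Il6: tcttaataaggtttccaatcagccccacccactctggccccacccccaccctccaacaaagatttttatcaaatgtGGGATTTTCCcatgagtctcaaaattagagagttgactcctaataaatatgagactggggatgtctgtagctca

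Of the 14 largest rises 11 had a promoter in the table, and 4 held the NF-kB motif (36.4%: Cxcl10, Cxcl2, Cxcl3 and Il6), against 0 of the 11 with a promoter among the 14 largest falls and 246 of 14452 genes (1.7%). Of the 13 chemokine genes with a promoter 3 held it (23.1%: Cxcl1, Cxcl10 and Cxcl2). An AP-1 motif, TGANTCA on either strand, was held by 3 of those 11 rises (27.3%), 1 of the 11 falls and 7.54% of all genes. In the genes higher in CLA the shares were 2.74% for NF-kB and 8.72% for AP-1, and in those lower 1.13% and 5.72%. In the genes higher on day 1 only they were 1.91% and 9.26%, near the 1.7% and 7.54% of all genes. Of the 19 immediate early genes with a promoter, 0 held either motif. A missing match says only that these letters are not in the window.

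Genes of the adipocyte programme were lower in CLA. Of 22 measured genes of adipocyte identity, 17 fell (10.8% of all genes) and none rose, with a median of -1.60. Pparg read 8.57 and 8.93 in CLA, against 10.60 and 10.73 in control (-1.92 ± 0.178, adjusted p = 4.4e-07). Cebpa read 9.08 and 9.16 in CLA, against 10.80 and 11.37 in control (-1.97 ± 0.29, adjusted p = 7.18e-05). Lep, the hormone leptin, read 7.76 and 8.04 in CLA, against 9.71 and 10.71 in control (-2.31 ± 0.32, adjusted p = 3.58e-05). Both transcription factors and the hormone had every CLA array below every control array.

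Slc2a4, the insulin-responsive glucose transporter GLUT4, read 6.89 and 7.33 in CLA, against 8.89 and 9.83 in control (-2.25 ± 0.373, adjusted p = 0.000233). Adipoq, adiponectin, read 12.51 and 12.69 in CLA, against 13.53 and 13.68 in control, a 2.01-fold difference (adjusted p = 4.25e-05). Pck1, which makes glycerol backbone in fat, read 8.77 and 9.07 in CLA, against 11.44 and 11.64 in control, with other probe sets between -3.42 and 0.03. These genes too were separated by diet. The members that did not pass the test were Car3, Cd36, Fabp4, Lpl and Pnpla2, at -0.325, -0.42, -0.295, -0.29 and -0.83. Without control replicate 2, 12 of the 22 were called lower.

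Receptors through which hormones and metabolites control lipolysis included some of the largest falls: 9 of 14 fell, none rose, and the median was -1.98. Mc2r, the ACTH receptor, read 4.81 and 4.15 in CLA, against 7.98 and 8.22 in control, a 12.3-fold difference (-3.62 ± 0.214, adjusted p = 2.39e-09). Tshr, the thyrotropin receptor, read 5.24 and 5.13 in CLA, against 7.79 and 8.82 in control (-3.12 ± 0.318, adjusted p = 1.11e-06). Oxtr, the oxytocin receptor, read 5.43 and 5.12 in CLA, against 8.07 and 8.88 in control, while its other probe set differed by -0.57. Each of the 3 was lower in both CLA arrays than in either control array.

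Hcar1, the lactate receptor that restrains lipolysis, read 5.03 and 4.73 in CLA, against 7.64 and 8.06 in control (-2.97 ± 0.269, adjusted p = 3.44e-07). Ffar4, a receptor of long-chain fatty acids, read 5.11 and 4.32 in CLA, against 7.95 and 7.39 in control (-2.96 ± 0.315, adjusted p = 1.98e-06). Receptors that raise and receptors that lower cyclic AMP were thus among those that fell. Mc2r differed by -1.47, -2.29, -2.52, -2.28, -3.06 and -2.44 on the later days, and the day 1 fall exceeded their mean by 1.28 (adjusted p = 0.000683).

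Lipases and their regulators fell in 9 of 12, with a median of -1.5. G0s2, an inhibitor of the lipase ATGL, read 10.21 and 9.11 in CLA, against 11.71 and 11.49 in control (-1.94 ± 0.266, adjusted p = 3.22e-05). Mgll, monoglyceride lipase, read 9.54 and 10.40 in CLA, against 11.84 and 11.89 in control (-1.9 ± 0.351, adjusted p = 0.000648). Prkaca, the catalytic subunit of protein kinase A, read 8.63 and 8.06 in CLA, against 9.95 and 10.09 in control (-1.68 ± 0.193, adjusted p = 4.68e-06). In these 3 genes the diets were apart. Lipe, hormone-sensitive lipase, read 7.46 and 8.02 in CLA, against 8.87 and 10.92 in control, and its call (-2.15, adjusted p = 0.0403) was lost without control replicate 2 (-1.13, adjusted p = 0.405) and without either CLA array. Its other probe set differed by 0.03. Without control replicate 2 the list gave 5 falls and 1 rise.

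Fatty acid synthesis fell in 15 of 19 members and triglyceride synthesis in 10 of 14, with medians of -1.18 and -1.07. Srebf1 read 8.63 and 8.84 in CLA, against 11.02 and 10.78 in control (-2.17 ± 0.366, adjusted p = 0.00028). Mlxipl, the factor ChREBP, read 6.64 and 6.74 in CLA, against 8.54 and 8.61 in control (-1.89 ± 0.297, adjusted p = 0.000138). Thrsp, the lipogenic protein Spot 14, read 10.80 and 10.65 in CLA, against 12.88 and 13.24 in control (-2.33 ± 0.222, adjusted p = 5.78e-07). The 3 lipogenic regulators were lower in both CLA arrays. Fasn, fatty acid synthase, read 12.08 and 12.78 in CLA, against 13.10 and 13.49 in control. Its difference of -0.865 (adjusted p = 0.0473) was close to the threshold, and the call was lost in 25 of 41 alternatives. Agpat2, an acyltransferase of triglyceride synthesis, read 9.77 and 10.11 in CLA, against 11.92 and 12.76 in control (-2.40 ± 0.321, adjusted p = 2.39e-05). Gpat3 and Lpin2 rose by 0.62 each, but with the Gapdh gap as a covariate 0 of the 14 triglyceride genes were called higher.

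Insulin signalling and glycogen genes fell in 12 of 18 and rose in 2 (Grb10 and Trib1), with a median of -1.39. Irs3, an insulin receptor substrate of rodent adipocytes, read 4.35 and 4.28 in CLA, against 7.21 and 7.41 in control, a 7.97-fold difference (adjusted p = 1.53e-05). Gys2, a glycogen synthase, read 6.56 and 6.38 in CLA, against 8.39 and 8.74 in control (-2.10 ± 0.206, adjusted p = 7.91e-07). Cholesterol synthesis fell in 8 of 16 with a median of -0.98, and none rose. Dhcr7, the enzyme of its last step, read 7.35 and 6.93 in CLA, against 8.92 and 8.59 in control (-1.62 ± 0.3, adjusted p = 0.000665). The arrays of these genes fell into separate diets.

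Of 23 genes of fatty acid oxidation 16 fell (10.8% of all genes) and 1 rose (Acot2), with a median of -0.78. Of 25 genes of oxidative phosphorylation 11 fell, 14 did not pass, and the median was -0.555. Ehhadh, a peroxisomal enzyme of beta-oxidation, read 6.62 and 6.52 in CLA, against 8.59 and 8.64 in control (-2.04 ± 0.204, adjusted p = 9.08e-07). Acadm, the medium-chain dehydrogenase, read 10.22 and 10.31 in CLA, against 11.40 and 11.52 in control (-1.2 ± 0.147, adjusted p = 1.01e-05). Sdhd, a subunit of complex II, read 8.49 and 8.47 in CLA, against 9.98 and 10.05 in control (-1.53 ± 0.168, adjusted p = 2.61e-06). Replicates of these 3 genes lay close together, and the diets were apart. Without control replicate 2, 11 of the 23 oxidation genes were called lower.

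Brown and thermogenic adipocyte genes fell in 11 of 17, none rose, and their median was -1.37. Cidea, a lipid droplet protein of brown fat, read 6.67 and 6.93 in CLA, against 9.22 and 9.99 in control (-2.81 ± 0.406, adjusted p = 5.76e-05). Ppargc1b, a coactivator of mitochondrial biogenesis, read 5.52 and 4.80 in CLA, against 7.67 and 7.48 in control (-2.42 ± 0.243, adjusted p = 9.72e-07). Ucp1, the uncoupling protein, read 4.78 and 4.49 in CLA, against 6.61 and 6.92 in control (-2.13 ± 0.569, adjusted p = 0.0116). For all 3 the CLA arrays lay below control. The Ucp1 call was lost without CLA replicate 2 (adjusted p = 0.0694) or control replicate 2 (adjusted p = 0.0704). Without control replicate 2, 6 of the 17 were called.

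**Figure D3:**
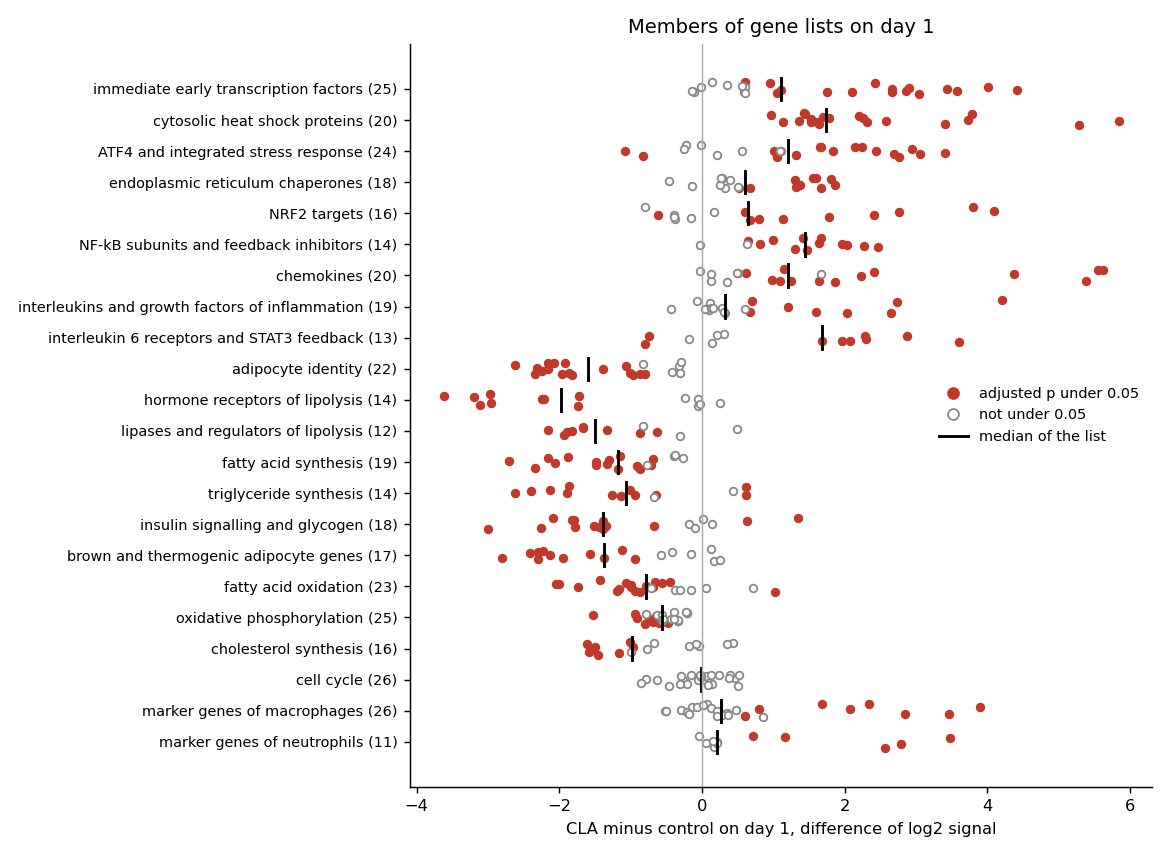
Day 1 difference of CLA and control in log2 signal for each measured member of 22 gene lists, the number of measured members in brackets. Filled points passed an adjusted p of 0.05, open points did not, and the bar is the list's median. All 20 heat shock genes lie right of 0, and no cell cycle gene passed.

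Smaller numbers changed in other pathways. Of 17 clock genes 2 rose (Cry1 and Arntl) and 3 fell (Cry2, Dbp and Per3), shares near the 7.96% higher and 10.8% lower of all genes. Dbp, a clock-controlled transcription factor, read 5.46 and 5.99 in CLA, against 8.12 and 8.33 in control, a 5.66-fold difference (adjusted p = 0.00246). The day 1 control arrays averaged 1.59 above the other 12 control arrays for Dbp, which ranged from 5.55 to 7.69. The CLA arrays of day 1 lay inside that range or just below it. The Cry1 call was lost without CLA replicate 1 or control replicate 2 (adjusted p = 0.0717 and 0.0801), and those of Arntl and Per3 without CLA replicate 2, genes whose other probe sets reached -0.155 and 0.20. Glucocorticoid response genes gave 5 rises and 4 falls among 12. Mt2, a metallothionein, read 11.17 and 11.85 in CLA, against 8.01 and 8.29 in control (3.36 ± 0.305, adjusted p = 3.44e-07). Zbtb16 and Tsc22d3, other such targets, fell by 1.93 and 1.9, calls lost without control replicate 2, and each has another probe set above 0 (0.075 and 0.255). The Tsc22d3 call was also lost with the Gapdh or the beta-actin gap as a covariate (adjusted p = 0.132 and 0.0812). Quantile normalisation ended it too (adjusted p = 0.0516), as did leaving out CLA replicate 1, where it differed by -0.765.

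Hypoxia response genes gave 5 rises and 3 falls among 17, against 7.96% higher and 10.8% lower of all genes, with P4ha1, a collagen prolyl hydroxylase, at 1.92 and Ldha, lactate dehydrogenase A, at -1.42. Growth arrest genes and p53 targets rose in 7 of 14 and fell in 1 (Sesn1), with a median of 0.97. Gadd45a, a growth arrest gene, read 8.31 and 9.67 in CLA, against 5.38 and 6.68 in control (2.96 ± 0.372, adjusted p = 1.24e-05). Its replicates lay far apart within each diet, without overlap between diets. Matrix remodelling genes rose in 11 of 29 and fell in 1 (Timp4). Thbs1, thrombospondin 1, read 8.31 and 8.90 in CLA, against 4.78 and 5.19 in control (3.62 ± 0.251, adjusted p = 1.66e-08). Adamts1, a secreted protease, read 9.60 and 9.44 in CLA, against 7.02 and 6.26 in control (2.88 ± 0.222, adjusted p = 5.84e-08). No collagen on the list passed, with Col1a1 at 0.01 and Col3a1 at 0.04. Among prostaglandin enzymes, Ptgs2 rose by 1.09 while Ptges and Ptges2 fell by 1.41 and 1.29, the Ptges call being lost when single day 1 arrays were left out. Of 12 RGS genes, regulators of G protein signalling, Rgs4 rose by 1.24 and Rgs2 and Rgs7 fell by 1.08 and 1.28, while other probe sets of Rgs4 and Rgs2 lay as near 0 as 0.10 and 0.015. The Rgs2 call (adjusted p = 0.0427) was lost without CLA replicate 2 (0.274), control replicate 1 (0.222) or control replicate 2 (0.053), and in 19 of 41 alternatives in all. Interferon response genes gave 3 rises among 15 (Ifit1, Mx1 and Oasl2) and 0 without control replicate 2.

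Markers of other cell types were set beside these changes. Of 26 macrophage markers 8 rose and none fell, with a median of 0.27. Clec4e and Clec4d, lectins induced in activated myeloid cells, differed by 3.9 and 3.46, and Fcgr1 by 2.35. Adgre1, an adhesion receptor of macrophages, read 7.39 and 8.01 in CLA, against 8.03 and 7.97 in control, and Cd68 7.40 and 7.99, against 6.90 and 7.92. The defining markers Adgre1, Cd68, Csf1r and Itgam thus did not pass, at -0.30, 0.285, -0.51 and -0.18. The mean level of the 26 markers was 7.72 and 7.93 in CLA, against 7.01 and 7.18 in control, and from 7.15 to 8.34 in the other control arrays.

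Neutrophil markers rose in 5 of 11, with a median of 0.215. S100a9, a calcium-binding protein of neutrophils, read 8.31 and 8.69 in CLA, against 5.44 and 4.61 in control (3.48 ± 0.884, adjusted p = 0.00825), and S100a8 8.03 and 8.37, against 5.85 and 5.41. Both calls were lost without CLA replicate 2 (adjusted p = 0.0534 and 0.0888) or control replicate 2 (0.0693 and 0.0958). The other called members were Fpr2, Mmp8 and Csf3r. Csf3r differed by 0.545 without CLA replicate 2 and by 0.485 without control replicate 1. Mpo, Elane, Ngp and Camp did not pass, at 0.06, -0.045, 0.15 and 0.21, so the granule genes on the list, Mmp8 among them, were split. The mean level of the 11 markers was 4.98 and 5.05 in CLA, against 4.01 and 3.93 in control, and from 3.85 to 4.86 in the other control arrays. Without control replicate 2, 3 of the 11 were called. The part of these cells in the chemokine and interleukin rises was not tested.

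No marker of T cells (11), B cells (10), mesothelium (10), skeletal muscle (14), kidney (10), erythroid cells (4) or liver (8) passed the test. Skeletal muscle markers averaged 7.53 and 7.03 in CLA, against 7.5 and 6.50 in control, and from 6.02 to 9.66 in the other control arrays. Endothelial markers gave 1 rise (Flt1) and 1 fall (Kdr) among 14, progenitors 1 fall (Zfp423) among 11 and mast cells 1 rise (Hdc) among 9. The Flt1 and Kdr calls were lost when single day 1 arrays were left out, and other probe sets of Flt1 differed by 0.005 to 0.275. Of 10 adrenal markers only Star, a mitochondrial cholesterol transport protein, rose, with 8.05 and 8.10 in CLA, against 5.31 and 5.72 in control. The steroidogenic enzymes Cyp11a1, Cyp11b1 and Cyp21a1 were at 0.07, -0.315 and 0.21 and did not pass.

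Changes that belong to day 1 were sought with the difference between the day 1 effect and the mean effect of the other 6 days, tested in the same model. It passed for 2891 genes (15.9%), 1125 with a higher and 1766 with a lower day 1 effect. A gene was counted as changed on day 1 only when it was called on day 1, this difference passed with the same sign, and no other day was called in the same direction. That held for 902 genes (4.96%), of which 468 were higher (2.57%) and 434 lower (2.39%) in CLA. Centring each array on its median gave 1093 such genes, 767 higher and 326 lower, and for the difference from the other days 1837 higher and 1454 lower; the median of all genes shifted by 0.114 in that difference. When the day 1 effect also had to differ from that of every single other day, 189 genes were left, 100 higher and 89 lower.

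The day 1 response also had a part that lasted. Of the 3420 genes, 614 (18%) were called in the same direction on all 7 days, 164 higher and 450 lower, and 1314 (38.4%) on no other day. Day 2 shared 969 genes in the same direction with day 1 (28.3% of the day 1 genes and 52.3% of the day 2 genes), and day 3 shared 1650 (48.2% and 40.7%). Days 4, 7, 10 and 17 shared 1639, 1203, 1351 and 1267. On days 2, 3, 4, 7, 10 and 17, 10.2%, 22.3%, 24.1%, 17.3%, 20.3% and 20.3% of all genes were called, and 5.34%, 11%, 11.3%, 8.57%, 10.2% and 8.78% were lower in CLA. Of the 3420, 242 were called in the opposite direction on at least 1 later day, 75 of them higher and 167 lower on day 1. No control array serves more than 1 day. Every overlap still rests on the same 4 day 1 arrays, and all calls take their spread from all 28 arrays. The day 1 control arrays were also set against the other 12 control arrays, and no gene passed by limma (0%), with 1586 (8.72%) at an unadjusted p under 0.05. Of the 902 genes, 104 (11.5%) were among those, and 865 (95.9%) were called when the CLA arrays were set against the controls of all 7 days. That comparison called 5704 of the 18193 genes. It uses the same CLA arrays that chose the 902 and includes the day 1 controls, so it is no independent check.

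**Figure D4:**
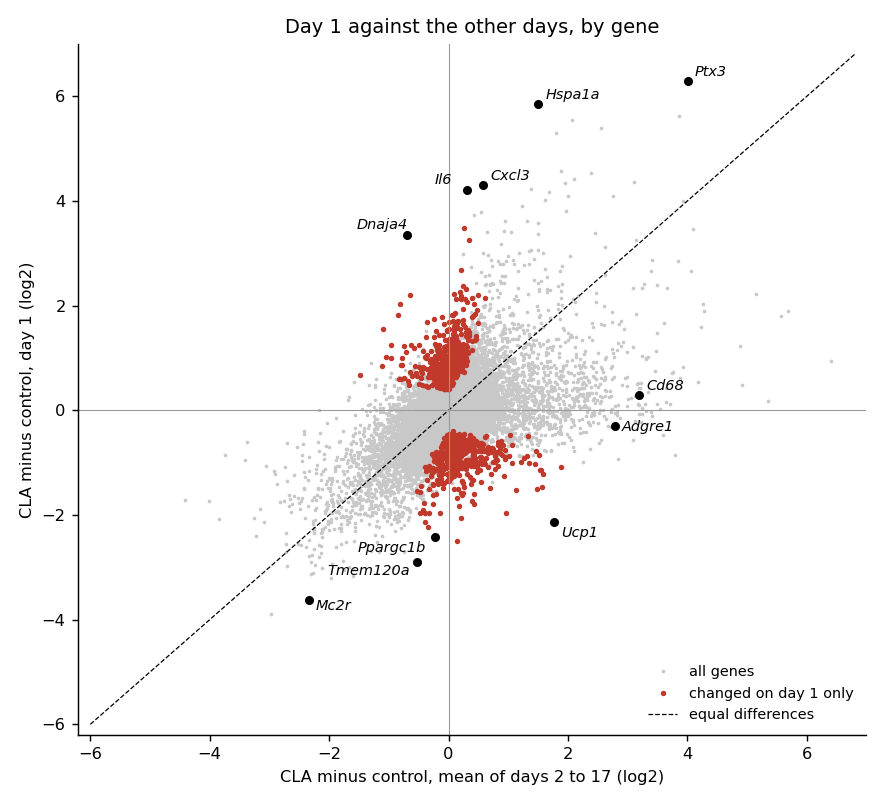
Each gene's difference of CLA and control in log2 signal on day 1 (vertical axis) against the mean of that difference over the other 6 days (horizontal axis). Red points are the 902 genes changed on day 1 only, black points are genes named in the text, and the dashed line marks equal differences. Il6 and Cxcl3 lie high above the line near a mean of 0, Ucp1 lies below 0 on day 1 and above 0 in the mean of the other days.

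The 10 largest rises of day 1 only were Cxcl3, Il6, S100a9, Dnaja4, Serpinb2, Prkab2, Rras2, Dnajb4, Chordc1 and Adamts4. All of these but S100a9 and Serpinb2 also differed from every single other day. Dnaja4, Dnajb4 and Chordc1 are co-chaperones, and 1 probe set of Dnajb4 differed by 0.055. Dnaja4, a J-domain co-chaperone, read 9.05 and 9.16 in CLA, against 5.93 and 5.58 in control (3.35 ± 0.184, adjusted p = 8.13e-10). On the later days it differed by -0.24, -0.84, -0.71, -0.79, -0.81 and -0.76, and the fall passed on 5 of them. Its day 1 effect exceeded their mean by 4.04 (adjusted p = 5.6e-10), so CLA was above control on day 1 and below it from day 3 on.

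Il6 exceeded the mean of the other days by 3.9 (adjusted p = 4.87e-08) and Cxcl3 by 3.74 (adjusted p = 0.000166). Prkab2, a regulatory subunit of AMP-activated protein kinase, read 9.61 and 9.68 in CLA, against 7.05 and 6.87 in control, and differed by at most 0.53 later. Rras2, a small GTPase of the Ras family, read 10.51 and 10.64 in CLA, against 8.58 and 7.80 in control. Chordc1 read 11.63 and 11.22 in CLA, against 9.44 and 8.90 in control. These 3 were high in both CLA arrays of day 1, and the largest later difference was 0.41 for Rras2 and 0.51 for Chordc1. Serpinb2, an inhibitor of plasminogen activators, read 7.28 and 6.70 in CLA, against 3.79 and 3.69 in control, and Adamts4, an aggrecan-cleaving protease, 6.42 and 6.50, against 4.68 and 3.83. Serpinb2 did not pass the test against the other days without CLA replicate 1, and in the other control arrays it ranged from 2.72 to 6.75. S100a9 did not pass that test without CLA replicate 1 (adjusted p = 0.0605), CLA replicate 2 (0.103) or control replicate 2 (0.12), nor with the beta-actin covariate (0.148).

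The 10 largest falls of day 1 only were Tmem120a, Dbp, Ppargc1b, H2bc21, Lsm10, Ucp1, Gpr155, Megf9, Fam241a and Selenoh. Of these, only Tmem120a, Ppargc1b, Lsm10 and Selenoh also differed from every single other day. For Dbp, H2bc21, Ucp1, Gpr155, Megf9 and Fam241a the day 1 effect was not shown to differ from each later day. Tmem120a, a nuclear envelope protein of adipocytes, read 6.75 and 6.76 in CLA, against 8.96 and 10.36 in control (-2.91 ± 0.385, adjusted p = 2.2e-05), with later differences from -0.01 to -0.89. Lsm10, a part of the small RNA particle that processes histone mRNA, read 6.15 and 6.25 in CLA, against 8.20 and 8.47 in control (-2.13 ± 0.177, adjusted p = 1.51e-07). Ppargc1b differed by -0.065, -0.31, -0.43, 0.13, -0.51 and -0.17 on the later days, none called. All 3 were low in both CLA arrays of day 1. In the other control arrays Tmem120a ranged from 9.10 to 10.26, Lsm10 from 8.15 to 8.70 and Ppargc1b from 6.75 to 7.80. H2bc21, Megf9 and Fam241a had CLA replicates far apart, such as 5.26 and 4.00 for H2bc21, and did not pass the test against the other days without CLA replicate 2, nor did H2bc21 and Megf9 without control replicate 1, and another probe set of Megf9 differed by -0.34.

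Of the genes named for a fall on day 1 and a rise later, Ucp1 had the widest gap between day 1 and the other days. After a difference of -2.13 on day 1 it stood at -1.06, -1.28 and 0.105 on days 2, 3 and 4, and CLA was higher by 4.33, 4.70 and 3.85 on days 7, 10 and 17, all called. Selenoh, a nucleolar selenoprotein, read 5.68 and 6.00 in CLA, against 8.07 and 7.55 in control, and was higher in CLA on 3 later days, with 1.51 on day 4. Ncapd3, a condensin subunit, read 5.44 and 4.50 in CLA, against 7.07 and 6.32 in control, and was called higher on 1 later day, with other probe sets between -0.835 and 0.475 on day 1. Gpr155 and Kctd12b fell by 2.06 and 1.68 on day 1 and were also higher on 1 later day each.

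In the other direction, Hspb8, a small heat shock protein, read 11.22 and 11.43 in CLA, against 8.88 and 9.37 in control, and was lower in CLA on 3 later days. Its other probe sets differed by 0.915 to 1.95 on day 1. Dnajb2, a neuronal and muscle co-chaperone, read 10.02 and 9.96 in CLA, against 8.31 and 7.59 in control, and Apold1, an early response gene of endothelium, 7.66 and 7.10, against 5.86 and 5.26. Both were lower in CLA on 5 later days, with differences of -0.48 to -1 for Dnajb2 over all 6. Hspa4l, of the HSP110 family, rose by 1.70 on day 1 and was lower on 1 later day. Of these 5 risen genes, Dnaja4, Hspb8, Dnajb2 and Hspa4l encode heat shock proteins or co-chaperones.

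**Figure D5:**
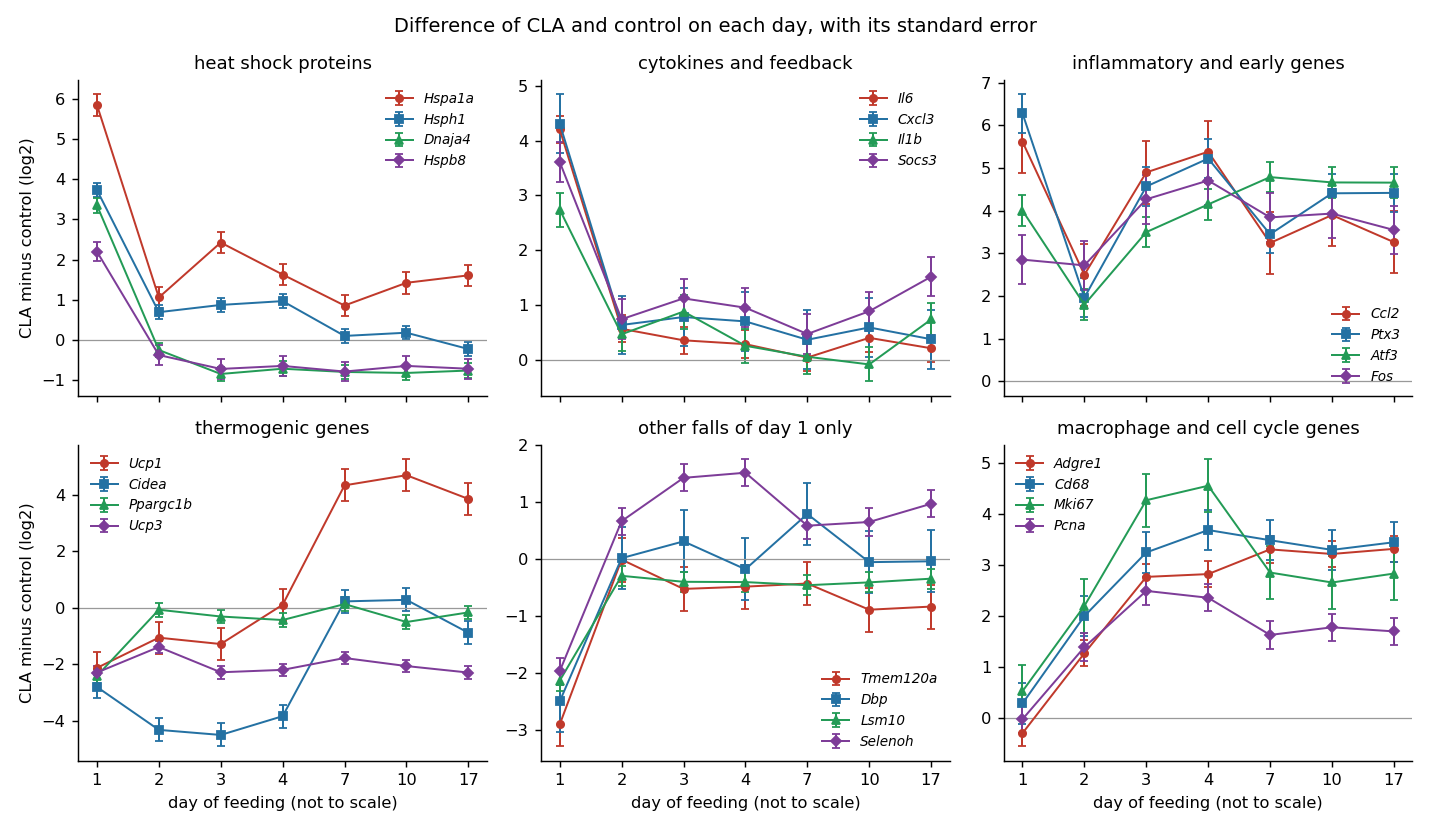
Difference of CLA and control in log2 signal on each day of feeding for genes named in the text, with the standard error of the fit as bars. The day axis is not to scale. Heat shock genes and Il6 peak on day 1, Atf3 and Fos do not, Ucp1 is below 0 on day 1 and above 4 on days 7 and 10, and Mki67 and Cd68 first pass after day 1.

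What later days showed and day 1 did not was as marked. None of 26 cell cycle genes was called on day 1 by limma, with 0 higher and 1 lower at an unadjusted p under 0.05, and their median was -0.015. The same genes gave 24, 25, 25, 21, 22 and 23 rises on days 2, 3, 4, 7, 10 and 17, with medians of 1.64, 3.12, 3.32, 1.71, 1.69 and 1.5. Mki67, the proliferation antigen, read 7.32 and 6.35 in CLA, against 6.81 and 5.81 in control, and Pcna, the replication clamp, 10.04 and 9.79, against 10.02 and 9.86. For 25 of the 26 the day 1 effect was lower than the mean of the other days by the test (9.71% of all genes). Macrophage markers gave 17, 20, 22, 21, 21 and 22 rises among 26 on those days, against 8 on day 1, and for 14 of the 26 the day 1 effect was lower than the later mean. Adgre1 differed by 1.27, 2.77, 2.83, 3.31, 3.22 and 3.32 later, and its day 1 effect lay below their mean by 3.09 (adjusted p = 1.09e-06).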

How the data were processed

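Total RNA (15 µg) from pooled retroperitoneal fat was labelled with biotin and hybridised to 1-colour oligonucleotide arrays, per the labels. The authors deposited log2 signals for 45101 probe sets, summarised by RMA (no version given) per the submitters' processing notes; the values ran from 1.9 to 14.18 with array medians of 4.1 to 4.2. They were used without further normalisation. Array number limits the precision. Each of the 18193 genes was represented by its probe set of highest mean among those naming 1 gene. A limma model (version 3.58.1, R 4.3.3) with 14 groups of diet and day gave each contrast, with Benjamini-Hochberg adjustment over all genes. Simulated data of 18193 genes held 100 changed genes of each of 2 sizes, with independent normal noise. There the day 1 contrast recovered 66% of changes of 1 log2 unit and 96% of 2 units. Far more genes were called in the real arrays, so recovery in them may differ. Named genes were the 14 largest rises and falls of day 1 among called genes whose CLA arrays both lay on one side of both control arrays, the 10 largest each way of day 1 only, the 5 largest each way that were called in the opposite direction later, up to 5 of largest effect from each list, and a set of standard genes. Members named beyond that rule were chosen after their values were seen. The members and lists were chosen with earlier results of these data known. Promoters were searched in RefSeq windows (GRCm38.p6) by letters. Normalisation, filters, probe set choice, RNA quality covariates, the block and left-out arrays were varied.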

Additional observations from a re-analysis of the deposited data

Results flagged for a closer look

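The effect of CLA on day 1 differed from its mean effect on the other 6 days for 2891 genes, by the test of that difference within 1 limma model. Among the genes named here, the day 1 effect was higher than that mean by 4.04 log2 units for Dnaja4, 3.9 for Il6, 3.74 for Cxcl3, 3.22 for S100a9 and 2.90 for Serpinb2. It was higher by 2.86 for Dnajb2, 2.84 for Hspb8, 2.67 for Apold1, 2.48 for Prkab2 and 2.13 for Rras2. For Chordc1, Hspa4l, Dnajb4 and Adamts4 the excess was 2.07, 2.06, 2.03 and 1.71. In the other direction the difference was -3.9 for Ucp1, -2.94 for Selenoh, -2.64 for Dbp, -2.38 for Tmem120a and -2.27 for Gpr155. It was -2.19 for Ppargc1b, -2.11 for Ncapd3, -1.89 for H2bc21 and -1.82 for Kctd12b, and -1.75, -1.65 and -1.49 for Lsm10, Fam241a and Megf9. These genes were chosen for a change on day 1 that was absent or opposite later, so the differences describe them. With 2 arrays a group, no array could be examined as an outlier within its group.

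Probe sets that name no single gene were outside the comparisons. Of these, 414 (4.1%) passed the test on day 1, against 14.4% of the probe sets that name 1 gene.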

How the results depend on the processing

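No named gene that passed the test changed sign under any alternative run, but the balance of higher and lower calls did turn. Leaving out each of the 28 arrays in turn gave 2697 to 3590 genes called on day 1, 2404 to 3113 for the difference between day 1 and the other days, 720 to 926 changed on day 1 only, and a Gapdh 3' to 5' difference between diets of -0.04 to 1.14. That difference was 0.365 with beta-actin in place of Gapdh and 0.245 from the 3' to the middle probe set. A fit on the 4 day 1 arrays alone called 592 genes, and setting the CLA arrays against all 7 control groups called 5704. Alternatives, chosen after seeing the data, used 1 replicate of each diet on day 1: replicate 1 gave 1947 called, 1752 for the difference and 473 on day 1 only, and replicate 2 gave 2461, 1903 and 541. With a difference from each single other day required, 189 genes remained by construction. Same-numbered CLA and control arrays deviated together on each day, with correlations of 0.566, 0.49, 0.228, 0.114, 0.0977, 0.345 and 0.101 from day 1 to day 17. The labels tie no number to a shared pool or batch and day 7 lies under 0.1, the level asked of every day, so the numbers were not taken to pair the arrays. A replicate block gave 4879 called, 4305 for the difference and 1369 on day 1 only. Centring moved the share of higher genes to 52.1% on day 1 (42.4% as deposited), 55.8% for the difference (38.9%) and 70.2% for day 1 only (51.9%). Quantile normalisation gave 600 higher and 364 lower on day 1 only, the Gapdh covariate 394 and 506, and the beta-actin covariate 364 and 530, against 468 and 434. Of 212 named genes, 187 were called, 32 of these calls were lost when 1 of the 4 day 1 arrays was left out and 24 without control replicate 2. The cause of these moves was not tested. No detection calls were used, so values near the bottom of the scale may lie below background.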

Other observations

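Within each diet the replicates of day 1 differed more than those of any other day, with day 2 next (SD of the difference 0.399 log2 units for CLA and 0.469 for control). The correlation of all genes between replicates on day 1 was 0.982 for CLA and 0.979 for control, and that SD was 0.447 and 0.486. The day 1 difference taken from replicate 1 alone had the same sign as the mean of both in 3420 of the 3420 called genes, and that from replicate 2 alone in 3419. For the 3399 of them with both CLA arrays on one side of both control arrays, that sign was fixed in advance. The shared sign is therefore no measure of how well the replicates agree. Both CLA arrays of day 1 had a wide Gapdh gap, so no CLA array of that day matches control replicate 2 in this measure.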
